A study of Mus musculus with 36 samples.

Results

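The 33 genes described here serve glucose transport, glycolysis and lactate and pyruvate handling, and they were measured in bone cells of mice lacking microRNA-324. They were chosen by function, out of 30205 genes with a transcript in the data. They comprise the glucose transporters Slc2a1, Slc2a3 and Slc2a6, and the hexokinases Hk1, Hk2 and Hk3, which trap glucose by phosphorylating it. Gpi1, Aldoa, Aldoc and Tpi1 code for the isomerases and aldolases of the preparatory steps, Pfkl, Pfkm and Pfkp for the subunits of phosphofructokinase, and Pfkfb3 and Pfkfb4 for the bifunctional enzymes that set its activator, fructose 2,6-bisphosphate. Gapdh, Pgk1, Bpgm, Pgam1, Eno1, Eno2, Eno3 and Pkm cover the pay-off steps, in which ATP is made. Ldha and Ldhb code for the subunits of lactate dehydrogenase, and Slc16a1 and Slc16a3 for the lactate carriers MCT1 and MCT4. Pdha1 and Pdhb code for the E1 subunits of pyruvate dehydrogenase, and Pdk1, Pdk2, Pdk3 and Pdk4 for the kinases that switch that complex off.

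Cells of wild-type control mice and of mice with a null mutation of Mir324, all 20 weeks old, were grown in 3 ways. Bone marrow macrophages (BMM) were cultured for 5 days with M-CSF alone, at 30 ng/mL, which keeps macrophages alive and dividing. Parallel cultures labelled osteoclasts (OC) received M-CSF at 30 ng/mL with RANK-L at 50 ng/mL, the cytokine that drives macrophages to fuse into bone-resorbing osteoclasts, also for 5 days. Osteoblasts (OB), which form bone, were outgrowths of bone chips that spent 18 days in osteogenic medium (β-glycerophosphate and ascorbic acid). Each of the 6 groups of genotype and cell type had 6 RNA-seq libraries, 36 in all, with 14118972 to 26347581 estimated counts per library. Whether the libraries of a group came from separate mice or cultures is not given in the labels, so the p-values measure only the spread between these samples, which may be technical. Expression of Mir324 was not analysed here, and the genotype labels have no other check.

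Marker genes set 2 groups apart before any comparison. The summed level of 10 osteoclast markers was 30453 to 32659 CPM in wild-type OC (CPM are estimated counts after scaling for library size) and 424 to 773 CPM in the null libraries labelled OC, against 220 to 245 CPM in wild-type BMM. Calcr, the calcitonin receptor of osteoclasts, was at 0 in all 6 null OC libraries. The sum of 10 macrophage markers in them (13448 to 18661 CPM) overlapped those of wild-type BMM (16405 to 18526 CPM) and null BMM (17101 to 19287 CPM). Wild-type OC lay at 6235 to 6619 CPM. Adgre1, 1 of the 10, had a mean of 6670 CPM in null OC, 7461 CPM in null BMM and only 1888 CPM in wild-type BMM. The null libraries labelled OC therefore went against their label in all 6 replicates, and they are called null RANK-L cultures below. Their osteoclast marker sums were still above those of null BMM, at 307 to 393 CPM. Osteoblast cultures of both genotypes held osteoblast markers together with osteoclast markers (4137 to 5275 CPM in wild type and 4983 to 7717 CPM in null) and macrophage markers (5725 to 6704 CPM and 3699 to 4517 CPM). In such bulk samples, fewer cells of a type and less RNA per cell cannot be told apart. The 6 null osteoblast libraries also differed from each other in these 33 genes more than any other group did, as described with the osteoblast results.

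Glycolysis splits glucose into pyruvate and yields ATP without oxygen, and lactate dehydrogenase then turns pyruvate into lactate, which MCT1 and MCT4 carry across the membrane. Pyruvate dehydrogenase takes pyruvate the other way, into acetyl-CoA and the citric acid cycle, unless a pyruvate dehydrogenase kinase has phosphorylated it. Macrophages and osteoblasts are both known for high rates of glycolysis, and osteoclasts for abundant mitochondria and acid secretion.

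Between genes, levels were compared in TPM, which accounts for transcript length. In wild-type BMM the most abundant members were Aldoa at 2721 ± 211 TPM (SD, n = 6), Pkm at 2543 ± 260 TPM and Eno1 at 1958 ± 205 TPM. The least abundant were Pdk4, at 0.0724 ± 0.0718 TPM, Eno2, the neuronal form of enolase, at 1.23 ± 0.770 TPM, and Slc2a3, a high-affinity glucose transporter, at 1.88 ± 0.549 TPM. Among the transporters Slc2a1, the basal glucose transporter GLUT1, and Slc2a6, the transporter GLUT6, were near equal, at 44.7 ± 9.83 and 42.6 ± 2.75 TPM.

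Wild-type osteoblasts carried more of nearly every member than wild-type BMM. Of 33 members tested with edgeR's quasi-likelihood test and Benjamini-Hochberg adjustment over all genes, 31 passed an adjusted p of 0.05 (93.9%, against 76.8% of all 14268 genes tested). They were 28 members that were higher in osteoblasts, where 41.5% of all genes were higher, and 3 that were lower, where 35.3% were. The median log2 fold change of the members was 1.06 and that of all genes 0.08. Pdk4, which lowers pyruvate oxidation in fasting, rose by 6.16 on the log2 scale (SE 0.37, adjusted p 2.19e-17), from at most 15.8 estimated counts in any BMM or OC library to 207 to 344 in osteoblast libraries. Slc2a3 rose by 4.04 (SE 0.37, adjusted p 1.16e-11), Ldhb by 4.01 (SE 0.13, adjusted p 2.22e-25) and the lactate carrier Slc16a1 by 2.92 (SE 0.22, adjusted p 4.66e-14). The 3 lower members were Slc2a6 (log2 fold change −3.55, SE 0.13), Hk3, a hexokinase of blood cells (−2.78, SE 0.10), and Pfkfb4 (−0.97, SE 0.11). Pkm, at 2604 ± 172 TPM in osteoblasts, changed by a log2 value of 0.00 (SE 0.07), and Pdk2 one of −0.04 (SE 0.14); neither passed the test. The 2 cell types also differ in medium and in days of culture, which cannot be told apart from cell type.

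RANK-L moved most of the pathway in wild-type cells. Of 32 members tested, 29 passed (90.6%, against 60.5% of all 12661 genes): 21 rose, where 30.4% of all genes rose, and 8 fell, where 30.1% fell. The members' median log2 fold change was 0.59, against 0.00 for all genes. The 4 genes of the preparatory steps and the 4 of lactate handling all rose, as did both pyruvate dehydrogenase subunits, 2 of the 3 tested kinases and 6 of the 8 pay-off genes. The falling members included 2 of the 3 transporters, 2 of the 3 hexokinases and both Pfkfb genes. For 25 of the 32 members the 6 OC libraries and the 6 BMM libraries did not overlap, as for 50.3% of all genes tested.

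Ldhb, the lactate dehydrogenase subunit of heart muscle, had 1.92, 2.70 and 3.43 CPM (lowest, median and highest of 6 libraries) in wild-type BMM and 22.8, 24.6 and 26.8 CPM in wild-type OC. Every OC library was far above every BMM library, a log2 difference of 3.23 (SE 0.15, adjusted p 1.45e-16). Pdk3, a pyruvate dehydrogenase kinase, went from 11.9, 15.1 and 17.7 CPM to 50.5, 57.5 and 58.8 CPM, again without overlap (1.90, SE 0.11, adjusted p 1.56e-14). Pdhb, the β subunit of the enzyme that this kinase inhibits, went from 85.8, 93.5 and 102 CPM to 271, 296 and 317 CPM (1.65, SE 0.06, adjusted p 1.47e-19). Subunit and kinase therefore rose together, and the OC libraries stood clear of the BMM libraries for each. Pdha1 (1.56, SE 0.08) and Pdk1 (1.27, SE 0.10) also rose.

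Pfkfb3, the isozyme with the strongest kinase activity for fructose 2,6-bisphosphate, had 86.7, 96.4 and 108 CPM in wild-type BMM and 15.4, 16.9 and 21.4 CPM in wild-type OC. The OC libraries were all below the BMM libraries (log2 fold change −2.50, SE 0.12, adjusted p 4.19e-16). Hk3 went from 352, 387 and 446 CPM to 102, 110 and 115 CPM, with no overlap (−1.87, SE 0.08, adjusted p 7.36e-18). Pfkfb4 went from 52.1, 53.8 and 59.1 CPM to 18.2, 20.3 and 23.2 CPM, also with no overlap (−1.42, SE 0.11, adjusted p 1.66e-11). Slc2a6 (−1.20, SE 0.07) and Hk2 (−0.72, SE 0.09) fell as well, while Hk1, the housekeeping hexokinase, rose (0.67, SE 0.08). Slc2a1 (0.16, SE 0.11), Eno2 (0.24, SE 0.29) and Pdk2 (−0.21, SE 0.16) did not pass. Calls for Slc2a3, Pfkl, Pfkm, Gapdh, Bpgm and Eno3 were lost when single libraries were left out (adjusted p up to 0.0833). The wild-type OC libraries also differed from BMM in their macrophage markers, all 10 of which fell, and the part of this in the members' changes was not tested.

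Hypoxia-inducible factors, which raise many of these genes when oxygen is low, bind the core letters ACGTG or GCGTG. The start regions of 4 members with large responses to RANK-L are shown because the same genes recur in the genotype comparisons. They run from 250 bases before to 50 bases after the start of the gene, from RefSeq (GRCm38.p6), 5′ to 3′ on the gene's strand, and capitals mark either core on either strand.
Pfkfb3, upstream start, chr2:11553880-11554179 (minus strand): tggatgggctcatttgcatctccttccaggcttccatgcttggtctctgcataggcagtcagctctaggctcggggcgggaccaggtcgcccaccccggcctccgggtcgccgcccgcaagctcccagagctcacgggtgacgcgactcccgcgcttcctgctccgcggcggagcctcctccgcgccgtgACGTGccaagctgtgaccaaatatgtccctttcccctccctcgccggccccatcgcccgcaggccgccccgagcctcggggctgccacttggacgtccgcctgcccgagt
Pfkfb3, downstream start, chr2:11502041-11502340 (minus strand): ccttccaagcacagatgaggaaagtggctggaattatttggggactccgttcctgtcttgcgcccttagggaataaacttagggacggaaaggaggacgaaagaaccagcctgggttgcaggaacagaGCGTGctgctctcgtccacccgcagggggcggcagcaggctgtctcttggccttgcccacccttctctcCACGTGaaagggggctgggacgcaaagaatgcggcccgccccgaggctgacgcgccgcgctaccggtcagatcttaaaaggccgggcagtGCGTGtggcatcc
Slc2a6, chr2:27027949-27028248 (minus strand): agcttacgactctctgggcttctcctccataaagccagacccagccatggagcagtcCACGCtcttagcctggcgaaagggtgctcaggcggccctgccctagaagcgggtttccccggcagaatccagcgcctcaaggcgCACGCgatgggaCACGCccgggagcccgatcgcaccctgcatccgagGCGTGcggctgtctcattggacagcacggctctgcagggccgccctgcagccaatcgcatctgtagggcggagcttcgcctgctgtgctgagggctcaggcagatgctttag
Ldhb, chr6:142507908-142508207 (minus strand): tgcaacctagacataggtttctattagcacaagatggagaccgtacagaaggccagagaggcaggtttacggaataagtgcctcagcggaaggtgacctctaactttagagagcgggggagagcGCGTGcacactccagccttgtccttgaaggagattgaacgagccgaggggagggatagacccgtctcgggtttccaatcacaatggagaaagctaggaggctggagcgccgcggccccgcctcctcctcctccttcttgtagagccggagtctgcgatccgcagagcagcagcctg
Pdk3, chrX:93832101-93832400 (minus strand): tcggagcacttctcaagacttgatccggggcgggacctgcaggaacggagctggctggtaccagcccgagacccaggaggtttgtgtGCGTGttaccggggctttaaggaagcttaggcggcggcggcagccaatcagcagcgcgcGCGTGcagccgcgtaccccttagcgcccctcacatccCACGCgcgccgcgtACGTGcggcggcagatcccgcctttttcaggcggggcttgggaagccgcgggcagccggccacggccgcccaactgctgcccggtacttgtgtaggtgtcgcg
Counted on both strands, where CACGTG counts as 2 matches of ACGTG, the downstream start of Pfkfb3 held 2 matches of ACGTG and 2 of GCGTG, and Slc2a6 held 4 of GCGTG. Pdk3 held 1 of ACGTG and 3 of GCGTG, and Ldhb 1 of GCGTG. Among these 4 members, those that fell with RANK-L and those that rose both held a core. Gpi1 and Tpi1, which rose, and Bpgm, which fell, held neither core. Start regions were found for 32 members, 46 in all. Of these 78.3% held either core, against 43.8% of all 32851 start regions in the table. Start regions of 1 gene can overlap, as for Eno1 and Aldoa, and were counted separately. By gene, 28 of the 32 members held either core, and no such count was made for all genes. ACGTG alone stood in 45.7% of the members' start regions and 19.6% of all, and GCGTG in 56.5% and 32.4%. A match of letters is not a bound site. In GRCm38, Pfkfb3 spans chr2:11471433-11554077, Slc2a6 chr2:27021363-27027998, Ldhb chr6:142490249-142507957, Pdk3 chrX:93764607-93832201 and Pdhb chr14:8165996-8173025, all on the minus strand.

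In null cells, RANK-L moved fewer of these members than in wild-type cells. The summed TPM of all members was 11607 to 12673 in null BMM and 13027 to 15383 in null RANK-L cultures, without overlap. Of 32 members, 7 passed (21.9%, against 12.9% of all 12661 genes), all of them higher, where 6.78% of all genes were higher; none was lower, where 6.07% were (2 lower at an unadjusted p under 0.05 in edgeR, and 1 with DESeq2 after adjustment). The 7 were Hk1 (log2 fold change 0.38), Hk3 (0.38), Pfkp (0.40), Pgam1 (0.32), Pkm (0.31), Slc16a1 (0.59) and Slc16a3 (0.40). Hk3 thus rose in null cells (SE 0.08, adjusted p 0.00322) and fell in wild-type cells. The members that moved furthest in wild-type cells had null values of −0.38 for Ldhb (SE 0.14, adjusted p 0.0785), −0.02 for Pdk3 (SE 0.11), −0.09 for Pdhb (SE 0.06) and 0.09 for Pfkfb3 (SE 0.11), none past the threshold. Slc16a1 and Slc16a3 lost the threshold when any one of 5 or 7 libraries was left out (adjusted p up to 0.117), and the count was 11 without null RANK-L replicate 5, 11 with DESeq2 and 4 in a fit of all 36 libraries.

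**Figure D1:**
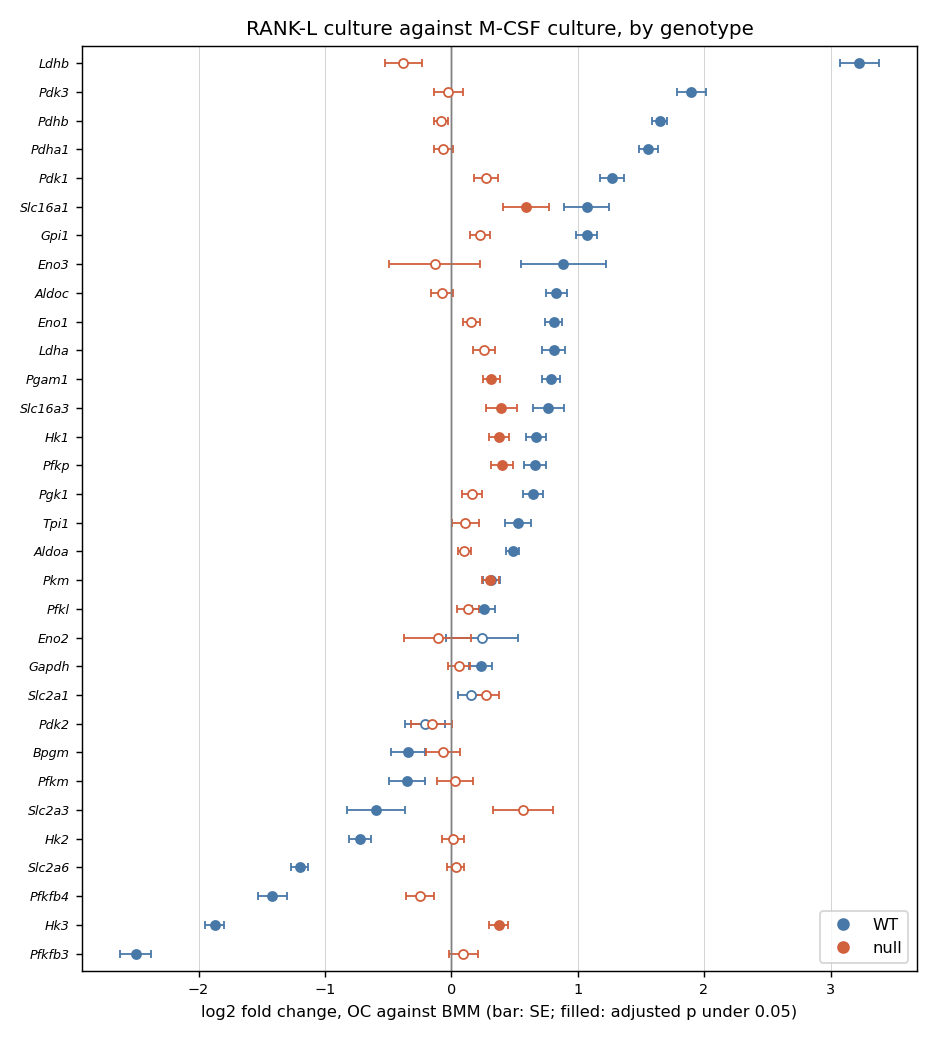
Response of 32 members to RANK-L, as the log2 fold change of OC against BMM with its SE (horizontal axis), for wild-type (blue) and null (orange) cultures, 6 libraries per group; filled points passed an adjusted p of 0.05. Wild-type values run from −2.50 for Pfkfb3 to 3.23 for Ldhb, and the 7 filled null points lie between 0.31 and 0.59.

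The difference between the responses was itself tested, as an interaction of genotype and RANK-L (null response minus wild-type response). It passed for 20 of 32 members (62.5%, against 51.4% of all 12661 genes), positive for 6 and negative for 14, with a median of −0.36 against −0.01 for all genes. Among all genes, 3197 passed as positive and 3305 as negative. The 3 members with the smallest p were Pdhb (−1.73, SE 0.08, adjusted p 2.86e-16), Hk3 (2.25, SE 0.11, adjusted p 6.53e-16) and Ldhb (−3.61, SE 0.21, adjusted p 3.5e-14). Pdhb in null cells had 84.6, 88.3 and 95.2 CPM without RANK-L and 78.2, 81.1 and 90.6 CPM with it, ranges that overlapped each other and stood below every wild-type OC library. Both subunits of pyruvate dehydrogenase, both tested kinases that rose in wild type, all 4 preparatory genes and 3 of 8 pay-off genes (Pgk1, Pgam1 and Eno1) had negative interactions. Positive ones were Pfkfb3 (2.59, SE 0.17), Hk3, Slc2a6 (1.24, SE 0.10), Slc2a3 (1.17, SE 0.33), Pfkfb4 (1.17, SE 0.16) and Hk2 (0.74, SE 0.12). The interactions of Slc2a1 (0.12, SE 0.15), Pkm (−0.01, SE 0.10) and the 3 phosphofructokinase genes did not pass, and that of Hk1 (−0.29) lost the threshold without any one of 6 libraries. Osteoclast markers moved with this contrast: all 10 rose with RANK-L in wild type and 7 in null, to sums of 30453 to 32659 and 424 to 773 CPM, and their part in the members' differences was not tested.

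Direct comparison of the null RANK-L cultures with wild-type osteoclasts gave the largest genotype differences among these genes. Of 32 members, 28 passed (87.5%, against 65.6% of all 12121 genes): 10 were higher, where 32.4% of all genes were, and 18 lower, where 33.1% were. The members' median log2 fold change was −0.41 against −0.03, and for 22 of the 32 members the libraries did not overlap, as for 45.4% of all genes tested. Lower in null were all 4 preparatory genes, both pyruvate dehydrogenase subunits, all 3 tested kinases, 3 of the 4 lactate genes and 4 of the 8 pay-off genes. Higher were Slc2a1 and Slc2a6, Hk2 and Hk3, Pfkl, both Pfkfb genes and 3 pay-off genes, Bpgm, Eno2 and Pkm.

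Pfkfb3 stood at 84.3, 106 and 130 CPM in the null RANK-L cultures, so that all 6 libraries exceeded the highest wild-type OC library at 21.4 CPM (log2 fold change 2.62, SE 0.11, adjusted p 3.01e-12). Slc2a6 had 112, 131 and 141 CPM in null and 22.9, 25.2 and 29.3 CPM in wild type, without overlap (2.35, SE 0.08, adjusted p 9.38e-14). Hk2, the insulin- and hypoxia-responsive hexokinase, had 54.6, 59.6 and 73.5 CPM against 27.4, 29.0 and 34.7 CPM (1.02, SE 0.09, adjusted p 2.53e-08). All 3 genes were higher in each null library than in any wild-type library. Slc2a1 was also higher, at 145 ± 18.5 CPM (SD, n = 6) against 84.9 ± 7.99 CPM (0.78, SE 0.09, adjusted p 5.6e-07).

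Pdk3 had 9.93, 11 and 14.9 CPM in null RANK-L cultures, against 50.5, 57.5 and 58.8 CPM in wild type (−2.29, SE 0.09, adjusted p 1.38e-12). Ldhb had 3.71, 5.11 and 6.72 CPM against 22.8, 24.6 and 26.8 CPM (−2.20, SE 0.13, adjusted p 1.45e-10). Pdhb, at 78.2, 81.1 and 90.6 CPM, was below the lowest wild-type OC library at 271 CPM (−1.81, SE 0.06, adjusted p 1.03e-13). For each of these 3 genes the range of the null RANK-L cultures overlapped that of null BMM and lay below every wild-type osteoclast library. Pdha1 (−1.81, SE 0.09), Pdk1 (−1.60, SE 0.06) and Gpi1 (−1.06, SE 0.09) were lower by more than 1 on the log2 scale too. Ldha, the main lactate dehydrogenase subunit, was lower by less (−0.64, SE 0.07, adjusted p 9.73e-07). Its level was 1020 ± 106 TPM against 1838 ± 90.6 TPM, but the fold change comes from counts scaled between libraries, as TPM are not.

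**Figure D2:**
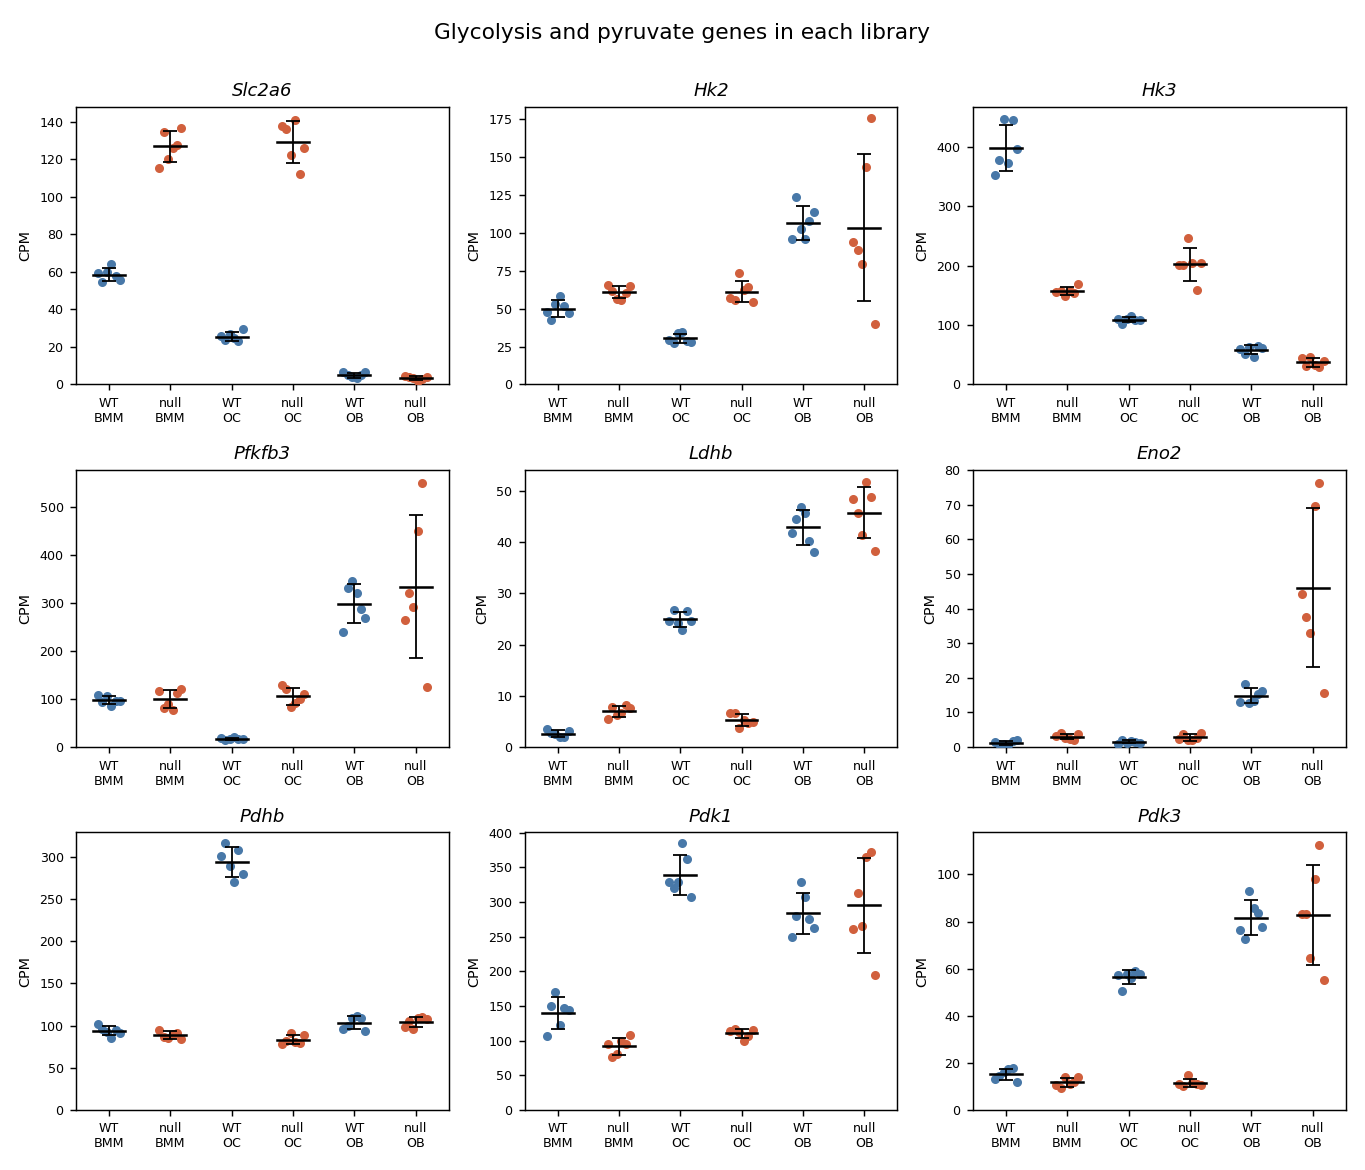
Level of 9 members in CPM (vertical axes, from 0) in each of the 36 libraries (points), with the mean (line) and SD (bar) of each group of 6; wild type is blue and null orange. Pdk3, Pdhb and Ldhb are high in wild-type OC, at up to 58.8, 317 and 26.8 CPM, and near their BMM level in null OC; Eno2 spreads from 15.5 to 76.3 CPM in null osteoblasts.

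Slc2a3 (−0.12, SE 0.25), Pfkm (−0.22, SE 0.12), Gapdh (−0.10, SE 0.07) and Slc16a3 (0.15, SE 0.08) did not pass in this comparison. Pkm (0.32, SE 0.07), the last step of glycolysis, was higher while Eno1 (−0.43, SE 0.07), Pgam1 (−0.40, SE 0.07) and Pgk1 (−0.65, SE 0.07), the steps just before it, were lower. The call for Aldoa (−0.12) was lost without any one of 9 libraries and that for Pfkl (0.19) without wild-type replicate 1 or 6; on log2(TPM + 1) Pfkl turned to −0.02. That scale moved the median of all genes by −0.20 and gave 6 higher and 20 lower members. Beside these differences, 8 of 10 macrophage markers were higher in the null RANK-L cultures and 1 was lower, and all 10 osteoclast markers were lower. The neutrophil sum was 53.7 to 94.6 CPM in null and 6.29 to 7.61 CPM in wild type, most of the former Csf3r (68.7 ± 19.3 CPM). S100a8 was at 6.89 ± 1.01 against 0.118 ± 0.0963 CPM. Of 3 neutrophil markers tested, 2 were higher in null and 1 was lower. The part of these markers was not tested.

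Without RANK-L, null and wild-type BMM already differed, though by less. Of 32 members, 22 passed (68.8%, against 52.3% of all 11925 genes), 10 of them higher in null, where 27.0% of all genes were higher, and 12 lower, where 25.4% were. The median log2 fold change was −0.08, against 0.02 for all genes, and for 10 of the 32 members the libraries did not overlap, close to the 30.9% of all genes tested. Higher in null were 2 transporters, Hk2, Pfkl, Aldoa, Eno1, Eno2, Pkm, Ldhb and Slc16a3, and lower were Slc2a3, 2 hexokinases and all 3 tested kinases among others.

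Ldhb had 5.43, 7.2 and 8.22 CPM in null BMM, above the wild-type range of 1.92 to 3.43 CPM (log2 fold change 1.41, SE 0.17, adjusted p 4.14e-06). The direction was the opposite of that under RANK-L, where null libraries were lower. Eno2 had 2.18, 2.95 and 3.97 CPM against 0.522, 1.20 and 1.96 CPM (1.27, SE 0.28, adjusted p 0.00145), a gap between low counts; on log2(TPM + 1) it was 0.53 with an adjusted p of 0.0542 and did not pass. Slc2a6 had 115, 127 and 137 CPM against 54.7, 58.4 and 64.0 CPM (1.12, SE 0.06, adjusted p 4.88e-10). In all 3 the null libraries were above each wild-type library.

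Hk3 had 149, 156 and 168 CPM in null BMM, below every wild-type library at 352 to 446 CPM (log2 fold change −1.34, SE 0.07, adjusted p 1.69e-10). Slc2a3 had 1.36, 1.81 and 2.99 CPM against 3.33, 4.77 and 5.93 CPM, also without overlap (−1.27, SE 0.21, adjusted p 8.46e-05). Pdk1, the kinase best known as a hypoxia target, had 75.7, 94.5 and 108 CPM against 106, 145 and 170 CPM (−0.59, SE 0.11, adjusted p 0.000361), and here the highest null library lay just above the lowest wild-type one. Pfkfb3 (0.04, SE 0.11), Ldha (−0.08, SE 0.09), Gapdh (0.09, SE 0.10) and Pdhb (−0.07, SE 0.06) did not pass. Eno3, Slc16a1 and Pdk3 passed narrowly (adjusted p 0.0433, 0.0291 and 0.0353), and each lost the threshold without any one of 5 to 8 libraries, with adjusted p up to 0.116. On log2(TPM + 1), which moved the median of all genes by −0.12, 5 members were higher and 16 lower. Among the markers in these libraries, macrophage sums overlapped between genotypes (17101 to 19287 CPM in null) while 8 of the 10 genes were lower in null. Mrc1 was at 244 ± 44.5 against 1211 ± 85.1 CPM, while Adgre1, which codes for F4/80, was the 1 gene higher in null (7461 ± 808 against 1888 ± 122 CPM). The sum of 10 neutrophil markers was 89.1 to 113 CPM against 32.3 to 51.4 CPM, most of it Csf3r (88.0 ± 10.8 against 42.1 ± 7.04 CPM). S100a8 was at 10.8 ± 3.83 against 0.163 ± 0.0788 CPM. S100a9, Elane and Retnlg were at 0 in all 6 libraries of each genotype, Ltf in null only and Ly6g in wild type only. Osteoclast markers summed to 307 to 393 against 220 to 245 CPM, with Mmp9 at 186 ± 23.8 against 0.336 ± 0.201 CPM. Of the 7 osteoclast markers tested, however, 2 were higher in null and 4 were lower. Of 10 proliferation genes 7 were higher in null, and their sums were 852 to 962 and 602 to 896 CPM. Their part in the members' differences was not tested.

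**Figure D3:**
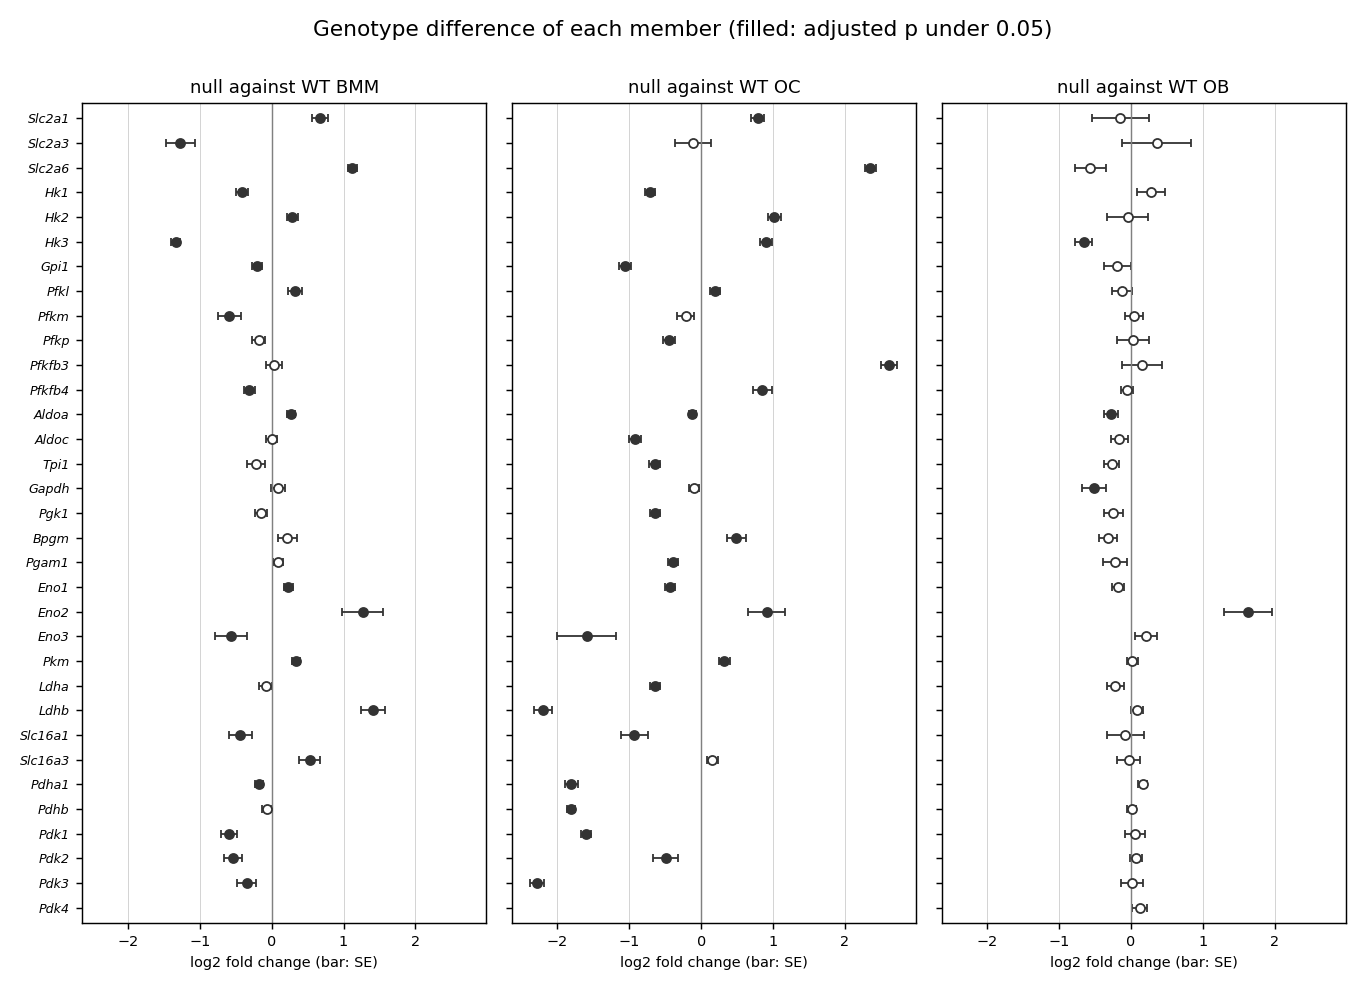
Log2 fold change with SE of null against wild type for the members in BMM, OC and OB (one panel each, 6 libraries per group); filled points passed an adjusted p of 0.05, and Pdk4 was tested in OB only. There are 22 filled points in BMM, 28 in OC and 4 in OB.

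Null osteoblast libraries varied far more in these genes than wild-type ones. The median SD between libraries of log2(CPM + 0.5) was 0.34 over the 33 members in null osteoblasts, against 0.18 over all genes of the same libraries and 0.14 over the members in wild-type osteoblasts. In the other 4 groups the members' median SD was 0.11 to 0.19. Of the 33 members, 26 varied more than the median gene of the null osteoblasts and 21 more than the upper quartile of all genes. Slc2a3 and Slc2a1 spread furthest: the highest null library exceeded the lowest 13.8-fold and 7.77-fold. The ratio was 4.92 for Eno2, 4.44 for Hk2, 4.38 for Pfkfb3 and 2.62 for the transporter Slc2a6, and the smallest among these were 1.17 for Pdha1 and 1.15 for Pdhb.

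The members moved together between null osteoblast libraries. Replicate 6 was the lowest for 26 of 33 members, and replicates 4 and 5 were each among the highest 2 for 27. Single libraries of other groups also stood at one end for many members. Wild-type osteoblast replicate 1 was the lowest for 20 of 33, and null RANK-L replicate 5 for 18 of 32. In wild-type BMM, replicate 1 was the lowest and replicate 3 the highest for 16 of 32 each. The same count was not made over all genes. The members' median log2 difference from the wild-type mean was 0.20 and 0.22 in replicates 4 and 5, −0.58 in replicate 6, and −0.26 to −0.02 in replicates 1 to 3, while single wild-type libraries lay between −0.15 and 0.09. Slc2a1 had 283 CPM in replicate 1, 294 in replicate 2, 241 in replicate 3, 608 in replicate 4, 704 in replicate 5 and 90.7 in replicate 6, so that the range of the null libraries enclosed that of wild type (320 to 462 CPM). A list of other hypoxia-responsive genes, none of them members (11 tested), showed the same order, with medians of 0.22 and 0.48 in replicates 4 and 5 and −1.32 in replicate 6, and so did the glycogen and gluconeogenesis list (10 tested), with 0.18, 0.22 and −0.62. Pathway regulators (14 tested) were also highest in replicates 4 and 5 (0.37 and 0.35) and lowest in replicate 6 (−0.04). Pyruvate entry genes (0.06 to 0.15 in every null replicate) did not spread in this way. The proliferation and pentose phosphate lists were lowest in replicates 4 and 5 (−0.26 and −0.34, and −0.27 and −0.34) and near 0 in replicate 6 (0.07 and −0.08). Osteoclast markers summed to 7717 and 7364 CPM in replicates 4 and 5 and 4983 to 6082 CPM in the other 4; their part in this spread was not tested.

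**Figure D4:**
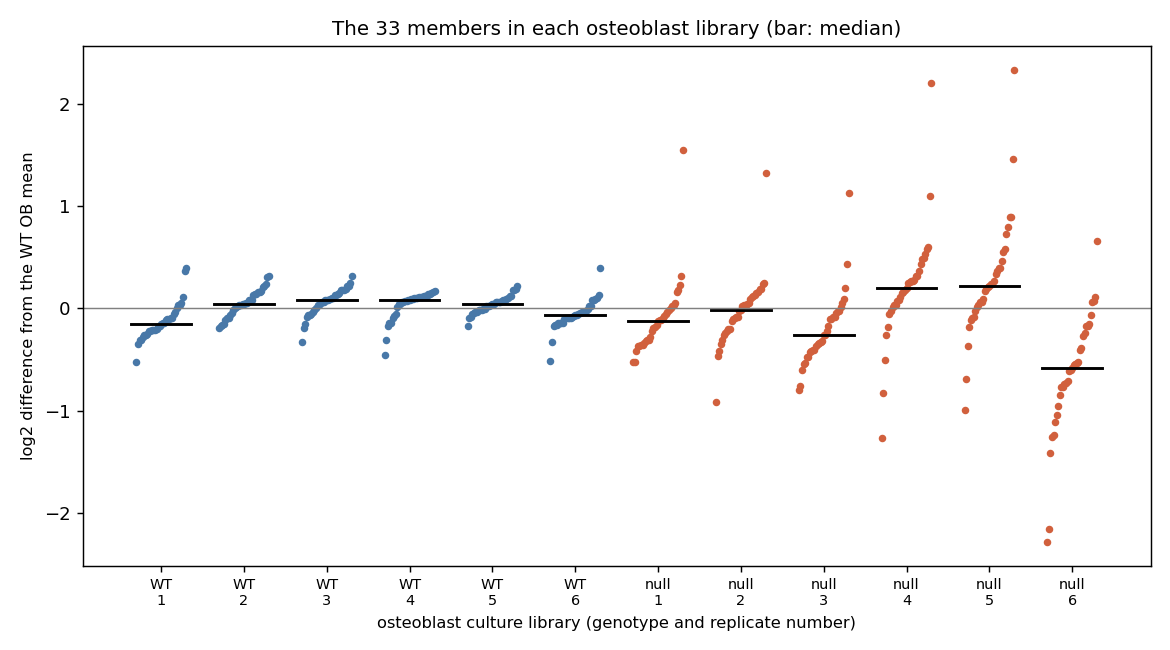
Difference of each of the 33 members from its wild-type osteoblast mean, in log2(CPM + 0.5), for each of the 12 osteoblast libraries; points are members and bars their median. Wild-type medians lie between −0.15 and 0.09, null medians between −0.58 in replicate 6 and 0.22 in replicate 5.

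Against that spread, few members differed between null and wild-type osteoblasts. Of 33, 4 passed (12.1%, against 32.5% of all 13607 genes): 1 was higher, where 15.5% of all genes were, and 3 lower, where 16.9% were. The median log2 fold change was −0.05, against 0.00. Eno2 had 15.5, 40.9 and 76.3 CPM in null and 12.9, 14.4 and 18.3 CPM in wild type (log2 fold change 1.63, SE 0.33, adjusted p 0.00287). Of the null libraries 5 stood above the wild-type range, and replicate 6 fell within it. Hk3 had 28.8, 36 and 46.1 CPM against 46.5, 60.9 and 65.3 CPM (−0.66, SE 0.12, adjusted p 0.0011), and was the only member whose libraries did not overlap, against 15.8% of all genes tested. Both calls held in all 25 alternative fits, in which Eno2 ranged from 1.42 to 1.81 and Hk3 from −0.75 to −0.48.

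Gapdh had 1010, 1744 and 2235 CPM in null osteoblasts and 2023, 2498 and 2664 CPM in wild type (−0.51, SE 0.17, adjusted p 0.0319). Aldoa had 1863, 2207 and 2901 CPM against 2543, 2901 and 3007 CPM (−0.28, SE 0.10, adjusted p 0.0464). Both pairs of groups overlapped, and neither call was firm: Gapdh lost the threshold in 11 and Aldoa in 16 of 25 alternatives. In the annotation 40 other genes shared at least 50% of their 31-base words with Gapdh, and with their counts added its log2 fold change was −0.29 with an adjusted p of 0.202. Leaving out single libraries moved the count of members passed between 2 (without wild-type replicate 2, wild-type replicate 5 or null replicate 3) and 6 (without null replicate 5). On log2(TPM + 1), which moved the median of all genes by 0.14, 7 members passed, 6 higher and 1 lower. Slc2a1 (−0.15, SE 0.39), Slc2a3 (0.36, SE 0.48), Slc2a6 (−0.56, SE 0.22), Hk2 (−0.04, SE 0.28) and Pdha1 (0.17, SE 0.06, adjusted p 0.0596) did not pass. The SE of the transporters, up to 0.48, limits the size of change that could be detected in them. Osteoblast markers summed to 101497 to 122330 CPM in null and 63315 to 85129 CPM in wild type, 7 of 10 macrophage markers were lower in null and 5 of 10 osteoclast markers higher; their part in these values was not tested.

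The genotype difference in osteoblasts was tested against that under RANK-L in one fit (osteoblast difference minus OC difference). It passed for 24 of 33 members (72.7%, against 55.2% of all 14268 genes), positive for 16 and negative for 8. Among all genes, 3973 passed as positive and 3908 as negative. The smallest p belonged to Pdhb (1.84, SE 0.08, adjusted p 4.48e-21), Pdha1 (1.99, SE 0.10, adjusted p 5.77e-19) and Slc2a6 (−2.90, SE 0.19, adjusted p 6.73e-16). Pdhb in osteoblasts had 96.3, 107 and 110 CPM in null and 93.1, 105 and 112 CPM in wild type, with full overlap. Pdha1 had 192, 207 and 225 CPM against 168, 184 and 210 CPM in osteoblasts, and 66.4, 91.2 and 106 CPM against 297, 309 and 336 CPM under RANK-L. Slc2a6 was low in osteoblasts of both genotypes, at 1.71, 3.54 and 4.49 CPM in null and 3.39, 4.84 and 6.48 CPM in wild type. For these 3 genes the groups overlapped in osteoblasts and stood apart under RANK-L. On log2(TPM + 1), which moved the median of all genes by 0.30, 20 members were positive and 5 negative, and Aldoa (0.24) and Pkm (0.10) turned from negative to positive.

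Isozyme composition was described as the share of each gene in the summed TPM of its family, and tested with a two-sided exact permutation test of 6 against 6 libraries. Its smallest p is 0.00216, which after Benjamini-Hochberg adjustment over 105 tests (21 shares in 5 contrasts) became 0.00598, and 53 tests passed. Hk3 was the main hexokinase of wild-type BMM with 72.4% ± 1.02 (SD, n = 6), and Hk1 that of wild-type OC with 55.1% ± 1.23. In null RANK-L cultures Hk3 held 55.3% ± 3.16 and Hk1 29.0% ± 2.83, and both differed from wild-type OC at that smallest p in the exact permutation test. The shares of null BMM were 51.6% ± 1.62 for Hk3 and 22.1% ± 2.14 for Hk2, the latter against 8.21% ± 0.944 in wild-type BMM. In osteoblasts the share of Hk1 was 62.0% ± 2.26 in null and 52.7% ± 0.838 in wild type, without overlap although the levels of Hk1 did overlap.

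Among the transporters, Slc2a1 made up 71.9% ± 3.15 of the summed TPM in wild-type OC and 47.2% ± 2.79 in null RANK-L cultures, where Slc2a6 made up 52.1% ± 2.85 against 26.6% ± 2.70. The summed TPM of the 3 transporters was 170 ± 13.4 in null and 75.7 ± 8.21 in wild type under RANK-L, and 149 ± 13.4 and 89.3 ± 10.8 in BMM. In osteoblasts Slc2a1 held 88.1% ± 2.01 in wild type and 84.9% ± 1.52 in null. The share of Pfkfb3 among the 2 Pfkfb genes was 39.8% ± 1.87 in wild-type OC and 68.1% ± 5.94 in null RANK-L cultures, while wild-type and null osteoblasts had 88.5% ± 2.00 and 88.4% ± 5.41. Ldha made up at least 97.1% of lactate dehydrogenase TPM in the mean of every group, so that the changes in Ldhb concerned a small part of the family.

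Pkm is spliced with either of 2 neighbouring exons of the same length, which give the M1 enzyme of muscle and the M2 enzyme of growing cells. The pair is shown because it is the only difference between the isoforms that the share below counts. Both are from the reference genome GRCm38 with the GENCODE annotation, in Pkm on the plus strand of chromosome 9, and capitals mark the bases that differ at the same position.
Pkm M1 exon, chr9:59675029-59675195: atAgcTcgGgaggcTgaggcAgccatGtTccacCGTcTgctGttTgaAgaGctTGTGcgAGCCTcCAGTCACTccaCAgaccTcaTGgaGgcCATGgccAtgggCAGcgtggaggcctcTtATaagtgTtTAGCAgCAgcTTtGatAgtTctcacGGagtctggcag
Pkm M2 exon, chr9:59675568-59675734: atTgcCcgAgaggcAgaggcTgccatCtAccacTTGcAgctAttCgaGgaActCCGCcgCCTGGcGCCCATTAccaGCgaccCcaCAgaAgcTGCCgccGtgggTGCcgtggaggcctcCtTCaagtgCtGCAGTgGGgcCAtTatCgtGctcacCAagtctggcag
The exons were identical at 103 of 167 positions (61.7%). The M1 transcript held 12.8% ± 0.360 (SD, n = 6) of the TPM of both in wild-type BMM and 20.5% ± 0.649 in null BMM. Under RANK-L it held 8.08% ± 0.234 in wild type and 22.2% ± 0.752 in null. The share thus fell with RANK-L in wild type and rose in null, each at an adjusted exact permutation p of 0.00598, with the M2 form the larger in every group. In osteoblasts the order of the genotypes was the reverse, with 18.6% ± 0.738 in wild type and 16.8% ± 1.01 in null (exact permutation p 0.00433, adjusted p 0.00967). These shares come from the authors' assignment of reads to transcripts, and their errors do not include that of the assignment.

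**Figure D5:**
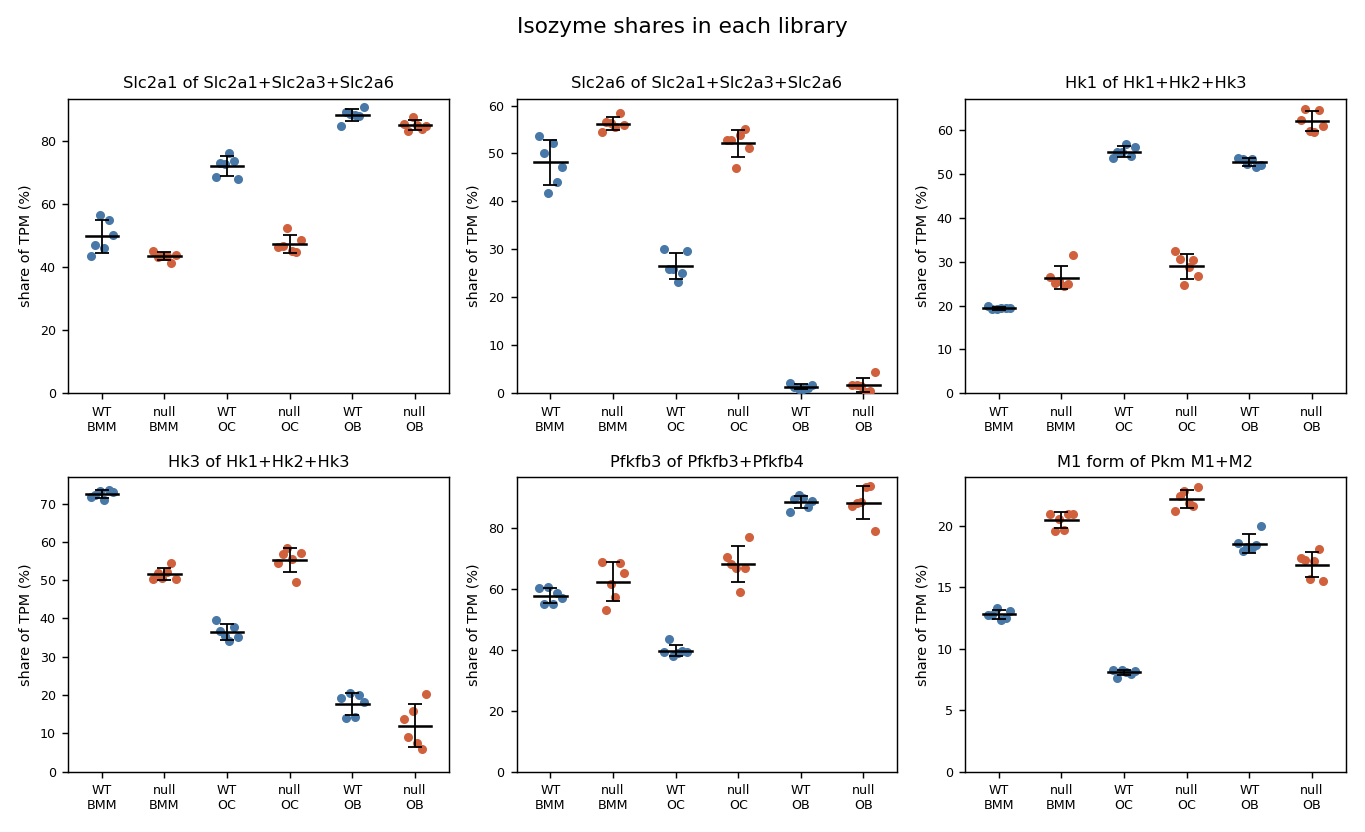
Share of the family's TPM in percent (vertical axes) for Slc2a1, Slc2a6, Hk1, Hk3, Pfkfb3 and the M1 transcript of Pkm in each library (points), with mean and SD by group of 6; wild type is blue and null orange. The M1 share is 8.08% in wild-type OC and 22.2% in null OC, and Hk1 holds 55.1% and 29.0%.

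Genes around the pathway were read from lists chosen by function, whose counts are to be read against the shares of all genes called: 65.6% for null RANK-L cultures against wild-type OC, 52.3% in BMM, 32.5% in osteoblasts, 60.5% for RANK-L in wild type and 76.8% for osteoblasts against BMM. For mitochondrial pyruvate entry (10 genes), wild-type RANK-L raised 6 and lowered 3, with Mpc2, a subunit of the mitochondrial pyruvate carrier, at 1.77 (SE 0.08) and Dlat, the E2 subunit of pyruvate dehydrogenase, at 1.48 (SE 0.08). In null RANK-L cultures against wild type, 2 were higher and 5 lower, and Mpc2 was at 65.6 ± 8.28 against 179 ± 9.05 CPM (−1.44, SE 0.08). Of other isozymes and transporters (12 tested), 4 were higher and 5 lower in that comparison. Slc16a7, the carrier MCT2, had 10.1 ± 1.5 CPM against 52.7 ± 2.98 CPM (−2.37, SE 0.10), and Pfkfb2, another fructose 2,6-bisphosphate enzyme, 8.93 ± 1.94 CPM against 38.0 ± 3.52 CPM (−2.07, SE 0.13). Pfkfb2 thus moved opposite to the members Pfkfb3 and Pfkfb4.

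In the pentose phosphate list (8 genes), 3 were higher and 1 lower in null RANK-L cultures, a smaller share than among all genes. G6pdx, whose enzyme opens the pathway, had 231 ± 25.3 against 134 ± 7.6 CPM (0.80, SE 0.07), and Pgd 0.62 (SE 0.07). In null BMM 3 were higher and 1 lower, with Taldo1 at 0.66 (SE 0.08), and in null osteoblasts 3 were lower, with Rpe at 19.5 ± 2.29 against 48.3 ± 4.69 CPM (−1.31, SE 0.09). Of the glycogen and gluconeogenesis genes (10 tested), 6 were higher and 3 lower in null RANK-L cultures than in wild-type OC. Pygl, glycogen phosphorylase of liver, was at 1.03 (SE 0.09) and Gys1, glycogen synthase, at −1.06 (SE 0.07) in that comparison. Gyg, which primes glycogen, was lower in null BMM (−1.35, SE 0.10) and in null osteoblasts (−0.75, SE 0.06).

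Regulators of the pathway also differed. Hif1a, the oxygen-regulated subunit of hypoxia-inducible factor 1, was at 223 ± 30.7 CPM in null RANK-L cultures and 113 ± 7.51 CPM in wild-type OC (0.99, SE 0.08, adjusted p 1.36e-08), and Myc at 47.7 ± 8.36 against 96.7 ± 8.16 CPM (−1.01, SE 0.10). Of 15 regulators tested there, 8 were higher and 4 lower. In BMM, Epas1, which codes for the HIF-2α subunit, had 5.60 ± 2.21 CPM in null and 90.0 ± 11.7 CPM in wild type (−3.99, SE 0.21, adjusted p 1.08e-09), and Egln3, a HIF prolyl hydroxylase, was higher in null (2.24, SE 0.35). Of other hypoxia-responsive genes, 3 were higher and 5 lower of 12 in null RANK-L cultures, a share near that of all genes, and 4 and 4 of 11 in null BMM. Between wild-type osteoblasts and BMM, 10 of these 12 were higher in osteoblasts, among them Car9 at 235 ± 31.4 against 8.30 ± 0.582 CPM (4.83, SE 0.19).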

How the data were processed

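RNA-seq of 36 libraries was read from one transcript table per library. Per the submitters' processing notes the authors used kallisto and DESeq2, whose versions are not given in the sources used here; the notes name the build GRCh38, while the transcript identifiers are of mouse. The files hold estimated counts and TPM per transcript as deposited by the authors, with effective lengths in bases, per the file headers. Libraries were prepared from total RNA with a low-input kit, per the labels' protocols.

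Estimated counts and TPM were summed per gene through the GENCODE annotation of the mouse (release 21, GRCm38), which matched 97.5% of 88198 transcripts; unmatched transcripts held 0.629 to 0.974% of the counts. Summed counts were rounded and tested in edgeR 4.0.16 (R 4.3.3) with its expression filter, TMM scaling and robust quasi-likelihood F tests, with Benjamini-Hochberg adjustment over all genes and a threshold of 0.05. Genotype comparisons used the 12 libraries of a cell type, the RANK-L comparisons and interaction the 24 BMM and OC libraries, and comparisons with osteoblasts all 36. Fold changes use edgeR's default prior count, and CPM one TMM scaling over 36 libraries. A prior count of 2 entered only the log2 CPM of the length and GC offset and of the check of same-numbered libraries. The fits were tested on simulated data. Isozyme shares were compared by exact permutation over 924 splits. Alternatives were RLE scaling, no filter or one on a mean count of 10, the Wald test of DESeq2 1.42.0, limma-voom and limma on log2(TPM + 1) (limma 3.58.1), the replicate number as a block, offsets for transcript length and GC content, counts of near-identical copies added, one fit of all libraries, and leaving out each library. Figures were drawn in Python 3.11.15.

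The members and lists were chosen with earlier results of these data known. Values by library are given for the 3 higher and 3 lower members with the largest log2 fold change past the threshold whose mean reached 1 CPM, and for the 3 smallest p in each test of differing responses. From the other lists, the named genes were taken from the 2 largest changes past the threshold at that level. The motif comparison, the spread between osteoblast libraries and the other values given by library were chosen after values were seen.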

Additional observations from a re-analysis of the deposited data

Results flagged for a closer look

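Among 194 groups of 6 libraries, one per member and group, 6 held a library at one end that stood apart from the other 5 by more than Dixon's 95% critical value; chance alone gives about 1 in 20. Slc2a3 had 4.35 CPM in wild-type OC replicate 3, where the next library had 3.10 CPM. Hk1 had 156 CPM in wild-type BMM replicate 3, next to 139 CPM. Pkm had 3512 CPM in wild-type osteoblast replicate 1, and the next lowest 4068 CPM. Slc16a1 had 19.8 CPM and Pdk3 14.9 CPM in null OC replicate 3, where the next libraries had 11.9 and 11.5 CPM. Pdk3 had 50.5 CPM in wild-type OC replicate 2, and the next lowest 55.8 CPM. Without null OC replicate 3 the response of Slc16a1 to RANK-L in null cells was 0.37 with an adjusted p of 0.117.

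The response to RANK-L differed between genotypes for 20 members by the interaction test, with Pdhb at −1.73, Hk3 at 2.25 and Ldhb at −3.61 on the log2 scale. The genotype difference in osteoblasts differed from that under RANK-L for 24 members, with Pdhb at 1.84, Pdha1 at 1.99 and Slc2a6 at −2.90. The null libraries labelled OC had far lower osteoclast marker sums than wild-type OC (424 to 773 against 30453 to 32659 CPM). In null cells 7 of the 10 markers were still higher with RANK-L. What part of either difference the lower marker level accounts for was not tested.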

How the results depend on the processing

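Over all settings the count of members past the threshold was 18 to 23 for BMM (22 as reported), 26 to 29 for OC (28), 26 to 31 for RANK-L in wild type (29), 19 to 24 for the interaction (20), 21 to 26 for osteoblasts against OC (24) and 29 to 31 for osteoblasts against BMM (31). For osteoblasts it was 4 as reported, 7 on log2(TPM + 1), 2 with no filter on low counts and 8 with the replicate block (2 higher, 6 lower). For RANK-L in null cells it was 7 as reported, 11 with DESeq2 (10 higher, 1 lower) and 4 in one fit of 36 libraries (3 higher, 1 lower). Leaving out each library gave 19 to 22 for BMM, 26 to 28 for OC, 2 to 6 for osteoblasts, 25 to 29 for RANK-L in wild type, 5 to 11 in null and 19 to 23 for the interaction. Directions turned on log2(TPM + 1) for Pfkl in null OC (−0.0196) and, in osteoblasts against OC, for Aldoa (0.24) and Pkm (0.0959). Pdhb in osteoblasts against BMM turned to −0.0021 with the length and GC offset, and −0.0022 with the replicate block added. The Ldha share in null osteoblasts turned to 0.0761 with copies added. The causes were not tested, except that TPM moved the median of all genes as given with each result. With each library centred, a setting chosen after seeing that shift, the splits on log2(TPM + 1) were 9 higher and 9 lower for BMM, 9 and 18 for OC, 2 and 3 for osteoblasts and 16 and 7 for osteoblasts against OC. Of isozyme shares, 53 of 105 tests passed, 60 with counts in place of TPM and 51 with copies added; the replicate block, a paired sign-flip test of 6 pairs with few possible p-values, gave 0 after adjustment over the 105 tests. Calls in osteoblasts over all genes went from 4420 to 2367 with the length and GC offset.

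Same-numbered libraries did not deviate together (correlations −0.13 to 0.10). Low correlations cannot tell whether libraries of the same number share a mouse or preparation, which the labels do not give. The block is therefore given only as an alternative. Single libraries whose removal ended a call were, for null against wild-type BMM, wild-type 1, 2, 3 and 5 and null 1, 2, 4 and 6 for Eno3, wild-type 3 and 5 and null 3, 4 and 5 for Slc16a1, and wild-type 3, 4 and 5 and null 1, 2, 4 and 5 for Pdk3. For osteoblasts they were wild-type 2 to 6 and null 1, 2, 3 and 6 for Aldoa, and wild-type 2 to 5 and null 1 and 3 for Gapdh. For OC they were wild-type 1 to 5 and null 2 to 5 for Aldoa. Members of under 5 CPM, such as Eno2, Eno3 and Slc2a3 in BMM and OC, rest on few counts.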
